A study of Mus musculus with 19 samples.

Results

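RNA of common myeloid progenitors (CMP) without Dnmt3a was compared with RNA of wild-type CMP on exon arrays. The members are the arrays that the sample titles name Dnmt3a-/- CMP (3 arrays) and Wild-Type CMP (3 arrays), 6 of the 19 arrays of the series. Both groups are progenitors sorted from the bone marrow of C57Bl/6J mice and differ by genotype. The numbers in their titles differ as well, 21987 to 22004 in wild type and 22298 to 22302 without Dnmt3a. Whatever these numbers stand for cannot be told apart from the genotype. The age of the mice, how the Dnmt3a allele was deleted and whether each array holds cells of 1 animal are not given in the sources used here. P-values therefore measure the spread between these samples only, which may be technical. Granulocyte-monocyte progenitors (GMP) of the same genotypes, wild-type (4 arrays) and Dnmt3a-/- (3 arrays), were set beside the CMP at the end.

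Dnmt3a is one of the enzymes that place new methyl groups on cytosine, mostly where a cytosine precedes a guanine (CpG). Methylation of CpG-poor control regions is one of the layers that keep lineage genes silent in blood stem and progenitor cells. CMP are Kit-positive progenitors without lineage markers. They feed the GMP, which form neutrophils, monocytes and part of the dendritic cells, and the progenitors of red cells and platelets. The title of the series asks about the need for Dnmt3a in leukaemia driven by the PML-RARA fusion, and none of the CMP arrays is labelled as carrying that fusion.

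All values are log2 intensities. The level of a gene on an array is the mean over the probe sets (short stretches of its exons) that carry its symbol alone, and a difference of 1 is a 2-fold change. Across the 15781 genes measured, wild-type CMP arrays correlated with each other with r from 0.964 to 0.984, Dnmt3a-/- CMP arrays from 0.985 to 0.986, and arrays of different genotype from 0.965 to 0.976. Wild-type replicate 1 stood apart, with a mean correlation of 0.966 with the other 5 CMP arrays, where each of those had 0.973 to 0.978. Its immediate early and heat shock genes averaged 8.52 over 20 members, against 6.46 to 7.06 on the other 5 arrays. The erythroid list averaged 7.58 there against 5.90 to 6.63, and the lymphoid and B cell list 6.79 against 5.16 to 6.32. Eif2s3y and Kdm5d, which lie on the Y chromosome, averaged 7.25 and 6.98 in wild-type replicates 1 and 2, and 3.06 in wild-type replicate 3. They averaged 2.69 to 2.90 in all 3 Dnmt3a-/- arrays, so a signal of sex moves in part with the genotype. The part of either difference in the results below was not tested beyond the values given beside them.

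The deleted gene was lower, as labelled. It was measured by 31 probe sets, and the sources used here do not say which of them lie in the deleted part. Of these, 24 were lower without Dnmt3a, with differences down to -4.06, and 7 were higher, 2 of them without overlap, with differences up to 0.59. Dnmt3a stood at 7.24, 7.65 and 7.50 in wild-type replicates 1, 2 and 3 and at 6.37, 6.49 and 6.41 in the Dnmt3a-/- replicates, with no overlap. It fell by 1.04 ± 0.14 (SE, n = 3 arrays in each group; limma adjusted p = 0.00198). Of the 13 measured genes that write, erase or read DNA methylation, Dnmt3a was the 1 that fell and none rose. The maintenance enzyme Dnmt1 differed by -0.06 ± 0.11 and the second new-methylation enzyme Dnmt3b by 0.02 ± 0.14, and neither passed.

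The identity of the sort was checked on the marker list. Kit, the receptor that defines the gate, lay between 9.73 and 10.09 on all 6 arrays, and its difference of 0.28 ± 0.12 did not pass. Cd34 lay between 10.25 and 10.35 in wild type and at 9.48, 10.02 and 9.27 without Dnmt3a, a difference of -0.71 ± 0.18 that did not pass (limma adjusted p = 0.0768). Fcgr3, which with Fcgr2b is bound by the antibody that separates CMP from GMP, lay at 5.72, 7.80 and 7.79 in wild type and at 7.21, 5.82 and 6.31 in Dnmt3a-/- CMP. None of the 11 gate genes passed, and their mean level was 6.54 to 6.61 in wild-type and 6.43 to 6.77 in Dnmt3a-/- arrays. Their differences ran from -0.71 to 1.10, so opposite shifts can cancel in that mean, which cannot settle the identity of the sort. In bulk RNA, fewer cells of a type and less RNA per cell cannot be told apart, and the same holds for more cells and more RNA.

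Of 15781 genes, 202 passed the threshold in Dnmt3a-/- CMP (limma, Benjamini-Hochberg adjusted p under 0.05), or 1.28%. Of these, 145 rose (0.919% of all genes) and 57 fell (0.361%), with medians of 1.09 and -0.93. The median over all genes was -0.04. At least 2-fold changes were seen in 87 that rose and 23 that fell, and at least 4-fold changes in 18 and 2. The genes that fell were the brighter set: their median wild-type level was 7.36, against 5.31 for those that rose and 5.38 for all genes. None of the 202 genes had overlapping values between genotypes, and 23.1% of all genes had none either. Without wild-type replicate 1, 211 genes passed, of which 129 were among the 202, and 87 of the 211 fell.

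Within the called genes, probe sets mostly moved together. In 134 of the 202 genes every probe set differed in the direction of the gene, and the lowest share in any gene was 66.7%. The genes were called on the mean of these same probe sets, so agreement follows in part from the selection. The share over all genes was not computed. All 12 probe sets of Cd74 and all 13 of Plbd1 were higher on every Dnmt3a-/- CMP array than on every wild-type one, as were 15 of 17 of Tlr3. In the other direction the same held for all 14 probe sets of F13a1 and 26 of 28 of Csf1r. Only 1 probe set measured Apoc1 and Rps7, as in 6 of the 202 genes.

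**Figure D1:**
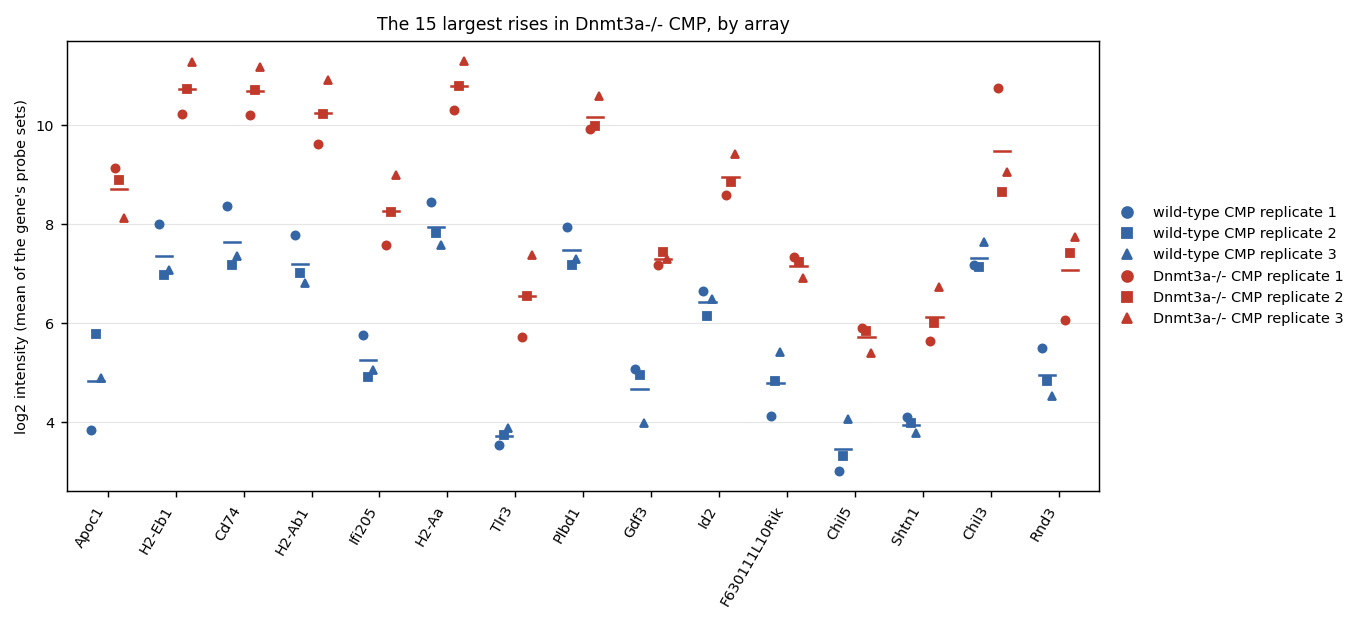
Log2 intensity of the 15 genes with the largest rise in Dnmt3a-/- CMP (vertical axis), with 1 point per array for wild-type (blue) and Dnmt3a-/- CMP (red) and a bar at each group mean. The class II genes H2-Eb1, Cd74, H2-Ab1 and H2-Aa stood at 9.62 to 11.30 without Dnmt3a and at 6.82 to 8.45 in wild type.

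A first group among the rises was antigen presentation on MHC class II, the surface molecules with which dendritic cells, B cells and macrophages show peptides to helper T cells. The promoters of 3 of its genes are printed first, because CpG content and a shared motif are described for them. They come from RefSeq on GRCm38.p6, 250 bases before to 50 bases after the listed gene start, and the capitals mark the motif TGATTGG.
H2-Aa, chr17:34287774-34288073, minus strand: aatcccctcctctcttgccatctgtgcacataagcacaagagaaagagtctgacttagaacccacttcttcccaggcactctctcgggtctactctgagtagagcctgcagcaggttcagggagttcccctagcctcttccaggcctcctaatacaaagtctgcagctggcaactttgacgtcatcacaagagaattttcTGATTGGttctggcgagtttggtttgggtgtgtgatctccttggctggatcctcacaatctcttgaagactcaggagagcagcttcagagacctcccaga
H2-Eb1, chr17:34305617-34305916, plus strand: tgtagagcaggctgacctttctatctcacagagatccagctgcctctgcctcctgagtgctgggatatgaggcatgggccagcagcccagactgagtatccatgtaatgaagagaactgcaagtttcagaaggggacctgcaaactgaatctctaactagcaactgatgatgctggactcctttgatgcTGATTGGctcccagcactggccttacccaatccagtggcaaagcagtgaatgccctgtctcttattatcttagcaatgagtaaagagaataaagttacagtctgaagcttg
H2-DMb1, chr17:34152941-34153240, plus strand: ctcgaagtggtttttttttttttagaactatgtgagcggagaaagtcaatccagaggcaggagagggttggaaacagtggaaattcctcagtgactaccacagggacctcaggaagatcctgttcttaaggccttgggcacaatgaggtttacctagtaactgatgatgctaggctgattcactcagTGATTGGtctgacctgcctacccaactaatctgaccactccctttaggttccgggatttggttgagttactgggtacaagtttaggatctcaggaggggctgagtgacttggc
The windows hold 3, 0 and 3 CpG, and the motif starts 50, 61 and 63 bases before the gene start.

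Of 10 measured class II genes, 6 rose and none fell, with a median difference of 1.29. H2-Eb1, a class II beta chain, stood at 8.01, 6.97 and 7.08 in wild-type replicates 1, 2 and 3 and at 10.23, 10.73 and 11.28 in the Dnmt3a-/- replicates. It rose by 3.40 ± 0.28 (limma adjusted p = 0.00015). H2-Ab1, the other beta chain, stood at 7.78, 7.01 and 6.82 against 9.62, 10.23 and 10.93. In both genes replicate 1 was the highest wild-type array and the lowest Dnmt3a-/- array, and the genotypes did not overlap.

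The alpha chain H2-Aa lay at 8.45, 7.83 and 7.58 in wild type and at 10.31, 10.79 and 11.30 without Dnmt3a, and rose by 2.85 ± 0.56 (limma adjusted p = 0.0269). Its standard error was larger than that of the beta chains. Cd74, the invariant chain that guides class II molecules through the cell, lay at 8.38, 7.18 and 7.35 against 10.22, 10.72 and 11.18. Ciita, the transcriptional coactivator that switches class II genes on, lay at 4.45, 4.61 and 4.67 against 5.70, 6.16 and 6.61, and rose by 1.58 ± 0.20 (limma adjusted p = 0.00178). H2-DMb1, a subunit of the peptide exchanger, rose by 0.92 ± 0.21 from a narrower gap, with 9.20 as the highest wild-type value and 9.47 as the lowest Dnmt3a-/- value. H2-DMa, its partner, differed by 0.23 ± 0.18 and did not pass.

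The 4 strongest class II genes, Ciita and H2-DMb1 had the same order of Dnmt3a-/- arrays, with replicate 3 highest and replicate 1 lowest. The mean level of the list was 7.18 to 7.58 in wild type and 8.67, 9.08 and 9.46 in Dnmt3a-/- replicates 1, 2 and 3. Leaving out 1 CMP array at a time, 4 or 5 of the 10 genes passed. H2-Ab1, H2-Eb1, Cd74 and Ciita passed in all 6 such fits, while H2-Aa and H2-DMb1 each lost the call in 5 (limma adjusted p up to 0.136 and 0.198). When the level of the Y-linked genes was a covariate, 4 class II genes passed, with a median of 1.28.

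Presentation on class I, which almost all cells carry out, moved little. None of its 11 measured genes passed, with a median of 0.11 and a range from -0.66 to 0.36. The heavy chain H2-K1 differed by 0.34 ± 0.28, H2-D1 by 0.36 ± 0.17 and the shared light chain B2m by 0.27 ± 0.12.

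Type 1 conventional dendritic cells present antigen and depend on the transcription factors Batf3, Irf8 and Id2. Of 12 measured genes of this list 4 rose and none fell, with a median of 0.74. Tlr3, the sensor of double-stranded RNA in their endosomes, stood at 3.53, 3.74 and 3.88 in wild type and at 5.73, 6.54 and 7.38 without Dnmt3a, and rose by 2.84 ± 0.33 (limma adjusted p = 0.00111). Id2, an inhibitor of E-protein transcription factors, stood at 6.65, 6.15 and 6.49 against 8.59, 8.86 and 9.42, and rose by 2.53 ± 0.20. Naaa, a lysosomal lipid amidase, stood at 5.90, 5.51 and 5.76 against 7.29, 7.70 and 8.26. In all 3 genes Dnmt3a-/- replicate 3 was again highest and replicate 1 lowest.

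Batf3 lay at 4.24, 5.09 and 5.34 in wild type and at 6.11, 6.41 and 6.56 without Dnmt3a, a rise of 1.47 ± 0.29 whose call was lost in 5 of 6 fits without 1 array (limma adjusted p up to 0.130). The Batf3 call was also lost with the median of probe sets, with brighter probe sets only, with the Y-linked genes as a covariate and with only the 6 CMP arrays fitted. Of its 6 probe sets 4 were higher without Dnmt3a, and its smallest difference in any alternative fit was 0.43. The chemokine receptor Xcr1 and the lectin Clec9a, which define the cell type, did not pass: Xcr1 differed by 0.73 ± 0.19 (limma adjusted p = 0.0831) and Clec9a by 1.49 ± 0.37 (limma adjusted p = 0.0775). The mean level of the list was 5.56 to 5.78 in wild type and 6.30 to 6.92 in Dnmt3a-/- arrays. The part of dendritic cells in the class II values was not tested. Of 11 genes of plasmacytoid and other dendritic cells 1 rose, the lectin Cd209a (0.80 ± 0.17), a call lost in 5 of 6 fits without 1 array (limma adjusted p up to 0.129). The plasmacytoid markers Siglech (0.58 ± 0.41) and Tcf4 (0.21 ± 0.13) did not pass.

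Several other large rises came from unrelated families. Apoc1, an apolipoprotein, had 3.83, 5.79 and 4.90 in wild type and 9.14, 8.89 and 8.13 without Dnmt3a. It rose by 3.88 ± 0.69, the largest rise among the called genes, a value that rests on 1 probe set, and the neighbouring family member Apoe differed by 0.20 ± 0.16 over 8 probe sets. Its call was lost without wild-type replicate 3 and without Dnmt3a-/- replicate 1 or 2 (limma adjusted p up to 0.0623). Gdf3, a ligand of the TGF-beta family, had 5.08, 4.95 and 3.98 against 7.18, 7.44 and 7.29, and rose by 2.64 ± 0.26 (limma adjusted p = 5.63e-04). In its neighbourhood the glucose transporter Slc2a3 rose too (1.09 ± 0.19), whereas Nanog differed by 0.09 ± 0.16 and did not pass. The Slc2a3 call was lost in 2 of 6 fits without 1 array (limma adjusted p up to 0.0764).

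Ifi205, of a family of interferon-inducible DNA sensors whose members resemble each other closely, had 5.77, 4.92 and 5.05 in wild type and averaged 8.28 ± 0.71 (SD, n = 3) without Dnmt3a, where its lowest array had 7.58. Plbd1, a lysosomal phospholipase-like protein, had 7.94, 7.18 and 7.30 against 9.92, 9.98 and 10.60, and rose by 2.69 ± 0.33. Shtn1, a protein of neuronal polarity, rose by 2.18 ± 0.23 from 3.77 to 4.10 in wild type. The small GTPase Rnd3 rose by 2.11 ± 0.41 (call lost in 4 of 6 fits without 1 array, limma adjusted p up to 0.127) and the unnamed transcript F630111L10Rik by 2.36 ± 0.34. The F630111L10Rik call was lost with the median of probe sets and with the Y-linked covariate. Dnmt3a-/- replicate 3 was highest for Ifi205, Plbd1, Shtn1 and Rnd3 and lowest for F630111L10Rik.

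Platelet genes formed another broad group. Megakaryocytes make platelets, and CMP give rise to them through megakaryocyte-erythroid progenitors. Of 16 measured genes 6 rose and none fell. All 16 differences were positive, from 0.82 to 1.86 with a median of 1.38, and 15 of them had every Dnmt3a-/- array above every wild-type array (23.1% of all genes were free of overlap in one direction or the other). Without wild-type replicate 1, 8 of the 16 passed.

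Selp, an adhesion receptor of platelets and endothelium, stood at 4.99, 4.85 and 5.15 in wild type and at 6.49, 7.15 and 6.94 without Dnmt3a, and rose by 1.86 ± 0.19 (limma adjusted p = 5.63e-04). Clec1b, the platelet receptor for podoplanin, stood at 3.12, 3.28 and 3.58 against 5.19, 4.54 and 5.41. Itga2b, the alpha chain of the fibrinogen receptor, stood at 6.94, 7.33 and 6.98 against 8.35, 8.28 and 8.76. In these 3 genes every Dnmt3a-/- array lay above every wild-type array.

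Vwf, the carrier of clotting factor VIII and ligand of the Gp1b complex, had 5.32, 5.94 and 5.64 in wild type and 6.82, 6.81 and 7.43 without Dnmt3a. In that complex Gp9 and Gp1ba rose as well, Gp9 by 1.48 ± 0.26 and Gp1ba by 1.49 ± 0.32, and Gp1bb (1.14 ± 0.31) did not pass. The calls of Gp9 and Gp1ba were lost in 4 and 5 of the 6 fits without 1 array (limma adjusted p up to 0.0764 and 0.169). The platelet chemokine Pf4 had 8.97, 10.14 and 9.62 against 11.45, 11.27 and 11.60, a difference of 1.86 ± 0.56 that did not pass (limma adjusted p = 0.141). When the level of the Y-linked genes was a covariate, the list had a median of 1.52 and 2 calls.

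The transcription factors of this branch did not pass. Of 13 GATA factors and partners none was called, with a median of 0.22. Gata1 had 8.03, 7.64 and 6.77 in wild type and 8.20, 7.95 and 8.17 without Dnmt3a, a difference of 0.63 ± 0.25. Gata2 differed by 0.74 ± 0.26, its cofactor Zfpm1 by 0.51 ± 0.17 and Tal1 by 0.21 ± 0.18. Among 14 erythroid genes none passed either, and their median was 0.00. The receptor Epor differed by 0.27 ± 0.35 and the red cell factor Klf1 by 0.11 ± 0.43, and both were highest in wild-type replicate 1 (7.48 and 7.97). Rhag, a red cell membrane protein, had 8.20, 4.44 and 4.19 in wild type and 5.47, 4.88 and 7.37 without Dnmt3a, so that single arrays set its level in either genotype.

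Genes of stem and multipotent progenitors shifted less. Of 24 measured 4 rose and none fell, with a median of 0.35. Mecom, a transcription factor of stem cell maintenance, stood at 4.14, 3.95 and 3.97 in wild type and at 4.95, 5.24 and 5.22 without Dnmt3a, and rose by 1.12 ± 0.19 (limma adjusted p = 0.0121). Hlf, a regulator of stem cell quiescence, stood at 7.16, 6.92 and 6.93 against 7.97, 8.49 and 7.97. The angiopoietin receptor Tek rose by 1.19 ± 0.21 and the elongation cofactor Mllt3 by 0.87 ± 0.17, while the surface marker Procr differed by -0.56 ± 0.25 and did not pass. With brighter probe sets only, Mecom differed by 0.41 and Tek by 0.46, and neither passed (limma adjusted p = 0.848 and 0.690). Of 6 fits without 1 CMP array, Mllt3 lost the call in 5 and Tek in 4 (limma adjusted p up to 0.108 and 0.0768). Mecom and Hlf each lost it in 2 (up to 0.065 and 0.0513). Without wild-type replicate 2, or without Dnmt3a-/- replicate 3, 1 stem gene rose, and without Dnmt3a-/- replicate 2, 1 rose and 1 fell. Without wild-type replicate 1, 5 rose, and without wild-type replicate 3 or Dnmt3a-/- replicate 1, 2 rose. Among 24 Hox, Meis and Pbx genes 1 rose, the cofactor Pbx3 (0.97 ± 0.18), and the list had a median of 0.03. The Pbx3 call was lost in 3 of 6 fits without 1 array (limma adjusted p up to 0.0777) and with brighter probe sets only.

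**Figure D2:**
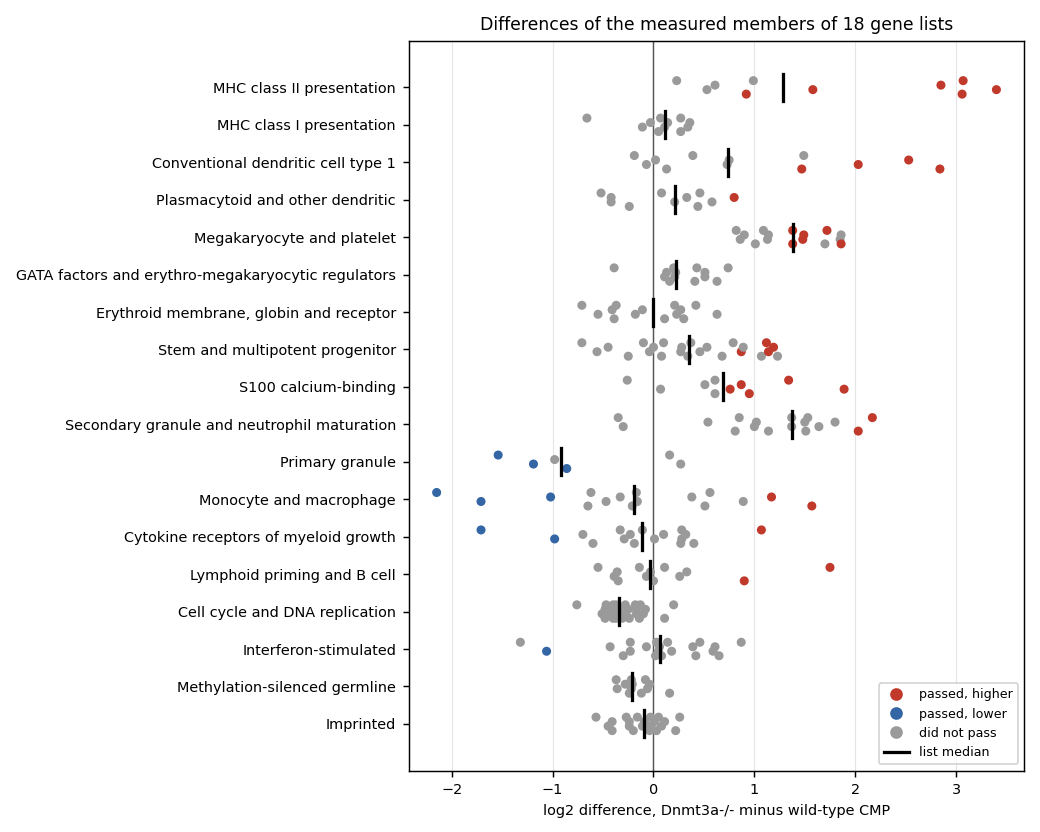
Log2 difference between Dnmt3a-/- and wild-type CMP (horizontal axis) for every measured member of 18 gene lists (rows), with 1 point per gene, coloured by whether it passed, and a black bar at the list median. Class II, platelet and secondary granule genes had medians of 1.29, 1.38 and 1.37, and primary granule genes had -0.92.

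The granule genes of neutrophils had list medians of opposite sign for early and late granules, with mixed members. Primary granules are filled first, at the promyelocyte stage, and hold Mpo and the serine proteases. Of 6 measured genes 3 fell and none rose, with a median of -0.92, and 2 had values above 0, up to 0.27. Mpo, the peroxidase, stood at 12.29, 12.71 and 12.55 in wild type and at 11.59, 11.80 and 11.59 without Dnmt3a, and fell by 0.86 ± 0.13 (limma adjusted p = 0.00618). Prtn3, proteinase 3, stood at 9.73, 11.13 and 11.19 against 9.26, 9.14 and 9.04, and fell by 1.54 ± 0.29. Ctsg, cathepsin G, stood at 10.03, 11.21 and 11.08 against 9.49, 9.71 and 9.54.

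In Prtn3 and Ctsg wild-type replicate 1 lay nearer to the Dnmt3a-/- arrays than to wild-type replicates 2 and 3. Ms4a3 went further: wild-type replicate 1 had 6.96, below the 8.70, 7.91 and 8.62 of Dnmt3a-/- CMP, and the other wild-type arrays had 10.53 and 10.67. Its difference of -0.98 ± 0.70 did not pass. Mpo kept its call in all 6 fits without 1 array, and Prtn3 and Ctsg each lost it in 5 (limma adjusted p up to 0.110 and 0.141). With the median of probe sets and with the Y-linked covariate the call of Mpo was lost. Without wild-type replicate 1 the list median was -1.27 with 4 calls, and with only the 6 CMP arrays fitted none of the list passed.

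Secondary granules are filled later, and their genes ran the other way on 1 array above all. Of 17 measured genes 2 rose and none fell, with a median of 1.37. The chitinase-like Chil3 had 7.18, 7.14 and 7.64 in wild type and 10.75, 8.66 and 9.06 without Dnmt3a, and rose by 2.17 ± 0.40 (limma adjusted p = 0.0223). The resistin-like Retnlg had 9.04, 8.88 and 8.91 against 11.70, 10.45 and 10.77, and rose by 2.03 ± 0.39. Chil3 lost its call in 2 and Retnlg in 4 of 6 fits without 1 array (limma adjusted p up to 0.0825 and 0.0895). Dnmt3a-/- replicate 1 was highest in both, and Chil3 and the related Chil5 (a rise of 2.25 ± 0.29) are similar enough in sequence that their probe sets may share signal.

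Lactoferrin, Ltf, had 7.39, 7.43 and 7.75 in wild type and 10.70, 8.64 and 8.17 without Dnmt3a, and its difference of 1.64 ± 0.65 did not pass. Camp (1.51 ± 0.34) and Lcn2 (1.53 ± 0.40) had the same high value in replicate 1 (12.33 and 12.10) and did not pass. Ngp, another granule protein, had 9.73, 9.37 and 9.53 against 11.97, 10.58 and 10.56 and did not pass either. The list averaged 7.31 to 7.89 in wild type. Dnmt3a-/- CMP averaged 9.88 on the first array, against 8.29 and 8.27 on the others. Without Dnmt3a-/- replicate 1 its median was 0.76 and 1 gene passed. Maturing neutrophils carry these RNAs at high levels, and their part in replicate 1 was not tested.

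S100 proteins bind calcium, and S100a8 and S100a9 form the main cytosolic protein of neutrophils. Of 10 measured members 5 rose and none fell, with a median of 0.68. S100a6 stood at 10.04, 10.05 and 9.93 in wild type and at 12.27, 11.67 and 11.75 without Dnmt3a, and rose by 1.89 ± 0.21 (limma adjusted p = 0.00100). S100a4, linked to cell motility, stood at 8.50, 8.45 and 8.13 against 9.55, 9.89 and 9.66. S100a8 rose by 0.76 ± 0.13 and S100a9 by 0.87 ± 0.17, both highest in Dnmt3a-/- replicate 1 (12.73 and 13.15), as was S100a6. S100a1 rose by 0.95 ± 0.21. S100a4 and S100a6 passed in all 6 fits without 1 array, whereas S100a1 and S100a9 lost the call in 5 and S100a8 in 3 (limma adjusted p up to 0.171, 0.0962 and 0.0704).

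**Figure D3:**
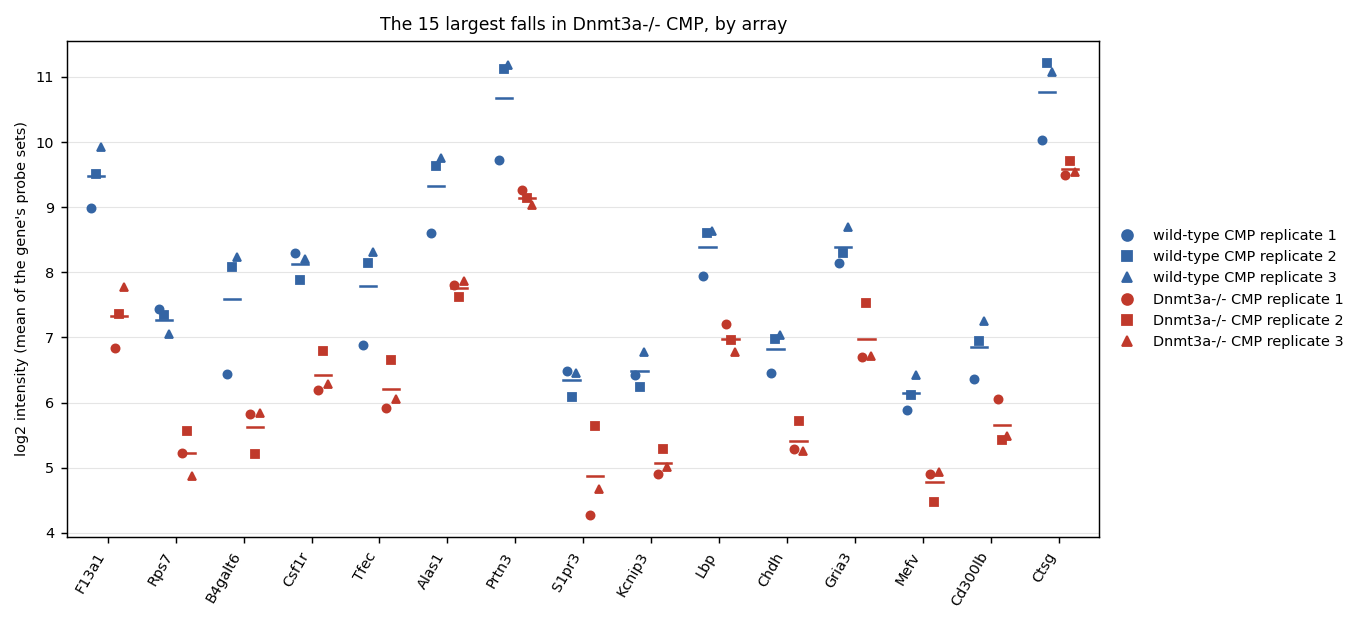
Log2 intensity of the 15 genes with the largest fall in Dnmt3a-/- CMP (vertical axis), with 1 point per array for wild-type (blue) and Dnmt3a-/- CMP (red) and a bar at each group mean. In B4galt6, Tfec, Alas1, Prtn3 and Ctsg wild-type replicate 1 was the lowest of its group, at 6.44, 6.89, 8.60, 9.73 and 10.03.

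The falls included 3 monocyte genes, and the monocyte list as a whole was mixed. F13a1, the transglutaminase that cross-links fibrin, stood at 8.99, 9.51 and 9.93 in wild type and at 6.84, 7.36 and 7.78 without Dnmt3a, and fell by 2.15 ± 0.25 (limma adjusted p = 0.00118). Csf1r, the receptor for the monocyte growth factors M-CSF and IL-34, stood at 8.29, 7.89 and 8.21 against 6.20, 6.79 and 6.28, and fell by 1.71 ± 0.18 (limma adjusted p = 5.63e-04). Ly86, the partner of the Toll-like receptor homologue Cd180, stood at 10.10, 9.79 and 10.02 against 8.57, 9.12 and 9.17, and fell by 1.02 ± 0.20. F13a1 and Csf1r passed in all 6 fits without 1 array, and Ly86 in none of them (limma adjusted p up to 0.0972).

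Of 16 measured monocyte and macrophage genes these 3 fell and 2 rose, with a median of -0.19. The galectin Lgals3 had 7.63, 7.45 and 7.24 in wild type and 9.03, 8.73 and 9.28 without Dnmt3a, and rose by 1.57 ± 0.20 (limma adjusted p = 0.00193). Lysozyme, Lyz2, which neutrophils also carry, had 9.34, 9.44 and 9.41 against 11.21, 10.30 and 10.20, and rose by 1.17 ± 0.24, a call that none of the 6 fits without 1 array kept (limma adjusted p up to 0.112). The receptor Cx3cr1 (-0.65 ± 0.25), Ccr2 (0.56 ± 0.26) and the macrophage marker Adgre1 (-0.62 ± 0.18) did not pass. Among brighter probe sets only, the list median was 0.33, with the same numbers of genes up and down.

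Among 17 cytokine receptors Csf1r and Il6st fell and Il13ra1 rose. Il6st, the shared signalling chain of the interleukin 6 family, stood at 8.41, 8.32 and 8.77 in wild type and at 7.15, 7.90 and 7.52 without Dnmt3a, and fell by 0.98 ± 0.20, a call lost in 5 of 6 fits without 1 array (limma adjusted p up to 0.133). Il13ra1, a chain of the interleukin 4 and 13 receptors, stood at 3.43, 3.32 and 3.68 against 4.46, 4.38 and 4.81. It passed in all 6 fits without 1 array and lost the call with brighter probe sets only and with the Y-linked covariate. The shared GM-CSF receptor chain Csf2rb (-0.29 ± 0.14) and the G-CSF receptor Csf3r (-0.23 ± 0.24) did not pass.

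Other large falls belonged to enzymes and sensors. Alas1, the first enzyme of haem synthesis outside red cells, stood at 8.60, 9.64 and 9.76 in wild type and at 7.81, 7.62 and 7.86 without Dnmt3a, and fell by 1.57 ± 0.25 (limma adjusted p = 0.00825). The Alas1 call was lost with only the 6 CMP arrays fitted and with the median of probe sets. No other of 9 haem synthesis genes passed, and the red cell form Alas2 differed by -0.20 ± 0.37. B4galt6, a lactosylceramide synthase, stood at 6.44, 8.08 and 8.23 against 5.83, 5.21 and 5.84, so that its fall of 1.96 ± 0.37 rests mostly on wild-type replicates 2 and 3. Tfec, a transcription factor of macrophages and osteoclasts, had the same pattern (6.89, 8.15 and 8.32 against 5.92, 6.66 and 6.05). B4galt6 lost the call in 5 and Tfec in 4 of 6 fits without 1 array (limma adjusted p up to 0.0945 and 0.126).

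Lbp, the carrier of bacterial lipopolysaccharide, fell by 1.41 ± 0.20 and Mefv, the inflammasome sensor pyrin, by 1.37 ± 0.19. The calcium-binding Kcnip3 (-1.41 ± 0.17), the choline dehydrogenase Chdh (-1.41 ± 0.24), the glutamate receptor subunit Gria3 (-1.40 ± 0.29), the sphingosine receptor S1pr3 (-1.47 ± 0.28) and the activating receptor Cd300lb (-1.20 ± 0.27) fell as well. Kcnip3, Lbp and Mefv passed in all 6 fits without 1 array, and Gria3, S1pr3, Chdh and Cd300lb lost the call in 4. Rps7, a ribosomal protein with many processed copies in the genome, fell by 2.05 ± 0.38 on 1 probe set, a call lost in 5 of 6 fits without 1 array (limma adjusted p up to 0.108). None of the 7 other ribosomal protein genes listed passed, with differences from 0.06 to 0.37.

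Transcription factors of granulocytes and monocytes gave 2 rises among 20 genes, Id2 and Bcl6, and no falls. Bcl6, a repressor known from germinal centre B cells and dendritic cells, stood at 5.84, 6.15 and 6.07 in wild type and at 7.18, 7.64 and 7.67 without Dnmt3a, and rose by 1.48 ± 0.25 (limma adjusted p = 0.0146). Its call was lost in 2 of 6 fits without 1 array (limma adjusted p up to 0.0764) and with the Y-linked covariate. Spi1 (PU.1) differed by -0.05 ± 0.14, Cebpa by -0.54 ± 0.14 (limma adjusted p = 0.0920) and Cebpb by -0.36 ± 0.23, and none of these passed. Cebpe had 5.03 in wild-type replicate 1 against 7.80 and 7.83 in the others, and 7.69, 6.08 and 5.85 without Dnmt3a.

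Among lymphoid genes 2 of 13 B cell genes rose. Ms4a1, which encodes the surface antigen CD20, stood at 2.49, 3.03 and 3.48 in wild type and at 4.92, 4.69 and 4.63 without Dnmt3a, and rose by 1.75 ± 0.23 (limma adjusted p = 0.00205). Cd22, an inhibitory receptor of B cells, rose by 0.90 ± 0.19, and with brighter probe sets only its difference was -0.02. The Cd22 call was lost in 4 of 6 fits without 1 array (limma adjusted p up to 0.162). The B lineage markers Cd79a (0.11 ± 0.84), Pax5 (-0.35 ± 0.37), Il7r (0.00 ± 0.52) and Dntt (-0.07 ± 0.44) did not pass, and wild-type replicate 1 had the highest value of each (7.78, 6.82, 7.30 and 9.32). Of 12 T and NK cell genes the transcription factor Gata3 rose (0.97 ± 0.18), a call lost in 3 of 6 fits without 1 array (limma adjusted p up to 0.0833) and with brighter probe sets only, where its difference was 0.03. The T cell receptor chains Cd3e (0.15 ± 0.24), Cd3d (0.61 ± 0.29) and Cd3g (-0.22 ± 0.22) did not pass.

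Innate receptors changed singly. Of 19 Toll-like receptors and partners Tlr3 and Tlr11 rose and Ly86 fell. Tlr11, a sensor of microbial profilin, stood at 3.02, 2.93 and 2.98 in wild type and at 3.93, 5.14 and 5.47 without Dnmt3a, and rose by 1.87 ± 0.33 (limma adjusted p = 0.0153). Its call was lost in 4 of 6 fits without 1 array (limma adjusted p up to 0.0764). Tlr1 (0.39 ± 0.34), Tlr2 (0.34 ± 0.35) and Tlr4 (-0.04 ± 0.14) did not pass. Of 21 interferon-stimulated genes none rose and the guanylate-binding protein Gbp3 fell (-1.06 ± 0.15), with a list median of 0.06. Of 29 chemokines and chemokine receptors Cxcl9 rose (0.80 ± 0.17), a call lost in 5 of 6 fits without 1 array (limma adjusted p up to 0.139) and with brighter probe sets only, where its difference was 0.41. Of 17 leukotriene and prostaglandin genes the leukotriene receptor Cysltr2 rose, from 3.09 to 3.30 in wild type to 4.34 to 4.53 without Dnmt3a (1.28 ± 0.14, limma adjusted p = 5.84e-04).

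Surface adhesion genes gave 2 rises and 1 fall among 19. The leukocyte integrin chain Itgb2 rose by 1.18 ± 0.21 and the laminin receptor chain Itga6 by 0.54 ± 0.12, and the endothelial and platelet adhesion molecule Pecam1 fell by 0.86 ± 0.18. Itga6 passed in none of the 6 fits without 1 array (limma adjusted p up to 0.168), Pecam1 lost the call in 5 (up to 0.163) and Itgb2 in 2 (up to 0.0645).

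Lists on which loss of a methyltransferase might bear held no call. Of 12 germline genes that methylation silences in body tissues none passed, and their median was -0.21. Dazl differed by -0.08 ± 0.24, Ddx4 by -0.28 ± 0.11 and Sycp1 by -0.36 ± 0.13. In 5 of the 12 both groups lay under 2.91, the median level of this list over the 13 CMP and GMP arrays. That level served as background for want of detection calls in the deposited values, and it is not a detection limit. Members under it follow from how it was set, so this count does not show which genes were detected. Of 21 imprinted genes none passed, with a median of -0.09 and a range from -0.57 to 0.26. H19 differed by -0.41 ± 0.22 and Igf2 by -0.03 ± 0.20.

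Proliferation genes lay slightly lower without a call. Of 29 cell cycle and replication genes 2 had values above 0, with a median of -0.34. In 14 the Dnmt3a-/- arrays lay below all wild-type arrays (23.1% of all genes were free of overlap in one direction or the other). Mki67 differed by 0.11 ± 0.15, Top2a by -0.10 ± 0.15 and Ccnb2 by -0.37 ± 0.18. None of 18 p53 target genes, 24 respiratory chain genes, 20 immediate early and heat shock genes, 15 basophil and mast cell genes, 6 eosinophil genes, 16 retinoid genes, 7 cyclin-dependent kinase inhibitors or 5 neuregulin and ErbB genes passed. Their medians were 0.15, 0.04, -0.08, 0.28, -0.40, -0.09, 0.12 and -0.10 in that order.

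**Figure D4:**
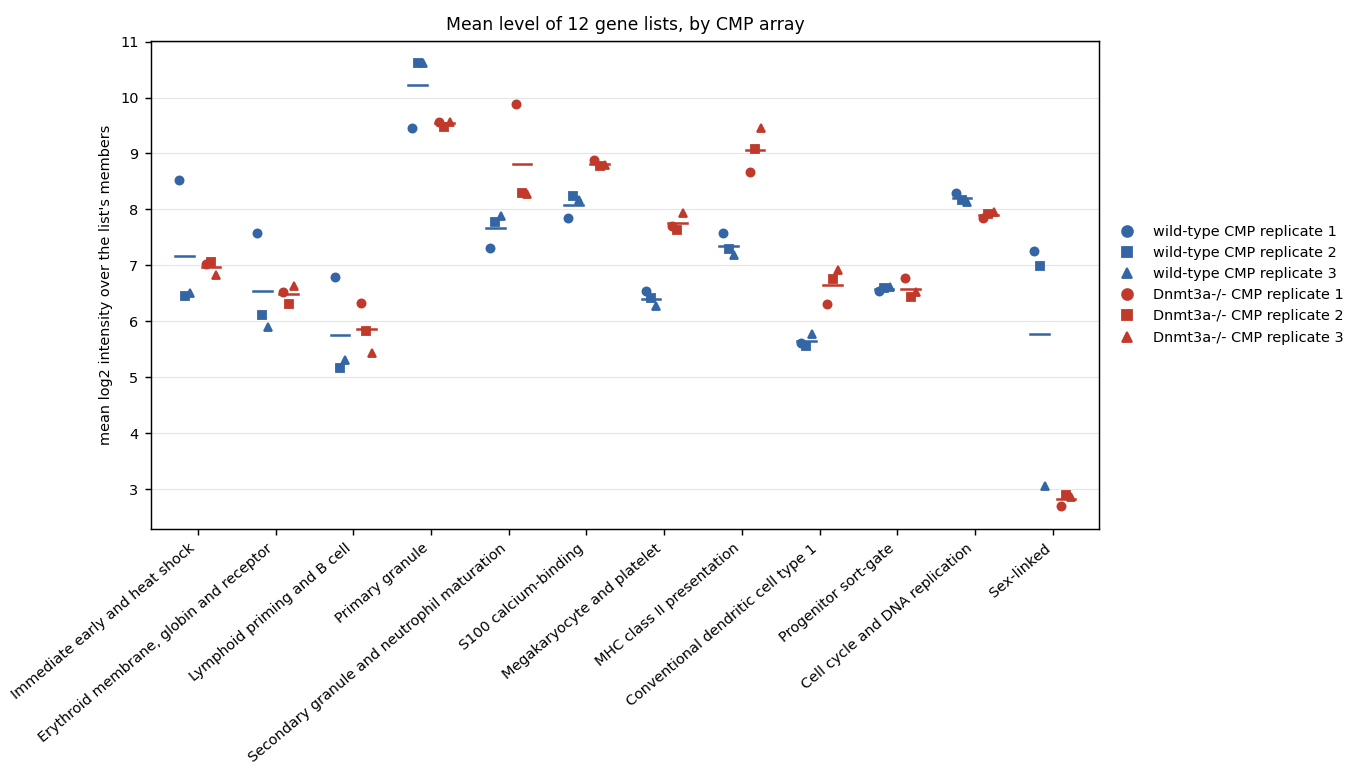
Mean log2 intensity over the members of 12 gene lists (vertical axis) on each CMP array, wild-type in blue and Dnmt3a-/- in red, with a bar at each group mean. Wild-type replicate 1 stood at 8.52 for immediate early, 7.58 for erythroid and 9.45 for primary granule genes, and Dnmt3a-/- replicate 1 at 9.88 for secondary granule genes.

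Some of the called genes lie side by side. Ordered along the chromosomes of the RefSeq table, 15 of the 201 called genes found there form 7 runs with no other measured gene between them, and every run moved in 1 direction. The class II run is H2-Ab1, H2-Aa and H2-Eb1, and S100a8 with S100a9 is a run of the same kind, both of rising genes. F13a1 with Ly86 is a run of falling genes, as is Csf1r with Pdgfrb (-0.68 ± 0.14). The remaining runs, named after their values were seen, are Ptpn12 with Gsap (rising), and Il17rb with Chdh and Cep164 with Bace1 (falling). How often such runs arise among genes in general was not tested.

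RefSeq promoter windows of 300 bases were found for 118 of the 145 rising genes (81.4%), 43 of the 57 falling genes (75.4%) and 12609 of all 15781 genes (79.9%). Windows were missing for over 20% of the falling genes and of all genes. A comparison of CpG content or of motif shares between these sets is therefore void, and none is drawn. The motif shares below describe only the windows found. CCAAT on either strand was found in 39.0% of the windows of rising genes, 32.6% of those of falling genes and 38.5% of all. TGATTGG on either strand contains the reverse of CCAAT and was chosen after the class II promoters, which are among those of the rising genes, were seen. It was found in 14.4% (17 of 118), 4.65% (2 of 43) and 9.36% in the same order, and within 200 bases around the start in 10.2%, 2.33% and 7.84%. These are descriptions with no test, and a match of letters is not evidence of binding.

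The CMP differences were then set beside those of the GMP arrays. These are other arrays, but the same features run through both populations. The Y-linked genes averaged 6.84 to 7.04 on 3 wild-type GMP arrays, 3.25 on the fourth and 2.54 to 2.91 on the Dnmt3a-/- GMP arrays. Secondary granule genes were highest in Dnmt3a-/- replicate 1 in GMP too, at 9.91 against 9.02 and 9.16. Title numbers of the Dnmt3a-/- CMP and GMP arrays are adjacent, such as 22298 and 22299, and so are wild-type 21986 to 21988. The remaining wild-type CMP and GMP numbers are not adjacent to each other. In both populations all Dnmt3a-/- numbers (22298 to 22303) lie above all wild-type ones (21986 to 22012). Immediate early and heat shock genes, high in wild-type CMP replicate 1 (21987), averaged 7.50 and 7.48 on wild-type GMP replicates 1 and 2 (21986 and 21988). The other GMP arrays had 6.29 to 6.77. The signs below are therefore not independent of the Y-linked, granule and immediate early differences, whose part was not tested. Of the 202 genes 177 had the same sign in GMP, and over all genes 66% did. Those that rose in CMP had a median of 0.51 in GMP, and those that fell had -0.27, where the median over all genes was -0.07. The difference was larger in CMP in 178 of the 202, which were selected for being large in CMP. A test of the difference between CMP and GMP called 0 of 15781 genes (0%; limma interaction term, smallest adjusted p = 0.0856), with 1083 at an unadjusted p under 0.05, among them 116 of the 202. No tool other than limma was run. Other limma fits called up to 48 genes (with array weights), 23 without wild-type CMP replicate 1 and 14 with the immediate early signal as a covariate.

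**Figure D5:**
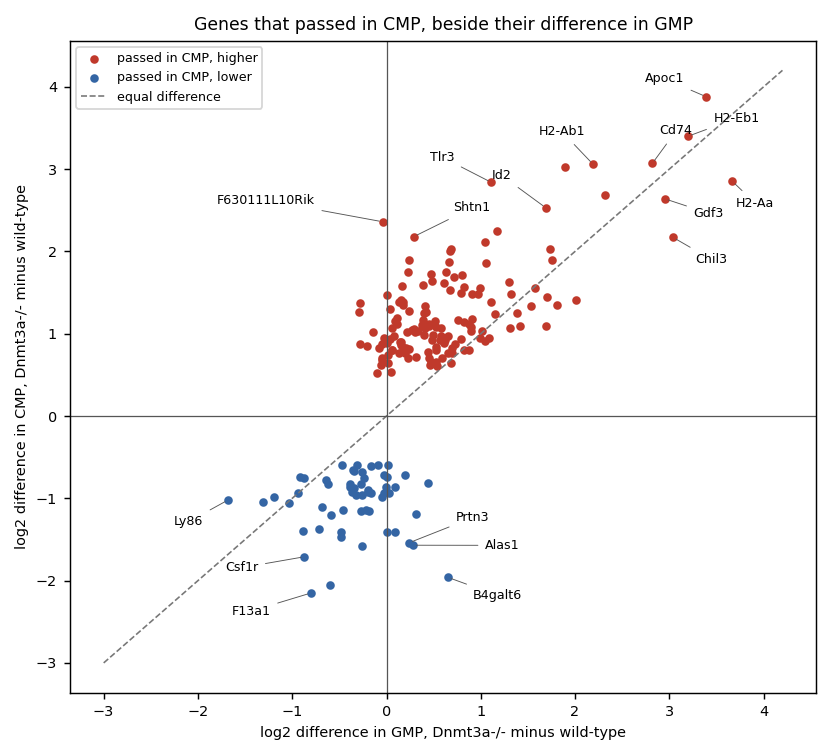
Log2 difference between Dnmt3a-/- and wild-type in CMP (vertical axis) against that in GMP (horizontal axis) for the 202 genes that passed in CMP, red for rises and blue for falls, with a dashed line of equal difference. H2-Aa, Gdf3 and Chil3 lie on the GMP side of the line, and Alas1, Prtn3 and B4galt6 had values above 0 in GMP.

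The class II list had a median of 1.29 in CMP and 0.58 in GMP, and its strongest genes had large values in both. H2-Eb1 differed by 3.40 ± 0.28 in CMP and by 3.20 ± 0.26 in GMP, Cd74 by 3.07 ± 0.29 and 2.82 ± 0.27, and H2-Aa by 2.85 ± 0.56 and 3.67 ± 0.53. Their starting levels differed, since the wild-type mean of Cd74 was 7.64 in CMP and 5.47 in GMP. Ciita had 1.58 ± 0.20 in CMP and 0.16 ± 0.19 in GMP, and the difference between these did not pass. Gdf3 (2.64 ± 0.26 and 2.95 ± 0.24) and Apoc1 (3.88 ± 0.69 and 3.39 ± 0.64) were alike in both within their errors.

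Others were nominally larger in CMP, and none of these differences passed. Kcnip3 differed by -1.41 ± 0.17 in CMP and 0.09 ± 0.16 in GMP (difference -1.51 ± 0.24, limma adjusted p = 0.122). Shtn1 had 2.18 ± 0.23 and 0.29 ± 0.21 (limma adjusted p = 0.166), and F630111L10Rik 2.36 ± 0.34 and -0.04 ± 0.31 (limma adjusted p = 0.182). Alas1 had -1.57 ± 0.25 and 0.28 ± 0.23, B4galt6 -1.96 ± 0.37 and 0.65 ± 0.35, and Lbp -1.41 ± 0.20 and 0.00 ± 0.18 (limma adjusted p = 0.182 for each). Prtn3 and Ctsg had -1.54 ± 0.29 and -1.19 ± 0.25 in CMP and 0.24 ± 0.27 and 0.31 ± 0.23 in GMP (limma adjusted p = 0.261 for each). Platelet genes had a median of 1.38 in CMP and 0.63 in GMP, and primary granule genes -0.92 and 0.27.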

How the data were processed

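RNA of sorted progenitors (20 ng) was amplified and hybridised to mouse exon arrays, per the labels' protocols. The deposited values are linear intensities, which the authors had normalized between arrays. RMA, Partek and the build mm9 are named in the submitters' processing notes. Array medians lay between 53.0 and 56.8. Log2 was taken, and 179496 of 194293 probe sets with 1 gene symbol were averaged into 15781 genes (median 9 probe sets). The 1328 with several symbols and 13469 with none were left out. Of the symbols, 2039 were updated through RefSeq synonyms.

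Genotypes were compared with limma 3.58.1 (R 4.3.3) over the 13 CMP and GMP arrays with a shared spread, two-sided, with Benjamini-Hochberg adjustment over all genes at 0.05. The number of arrays limits the precision. Members and lists were chosen with earlier results of these data known. Named are the 15 largest rises and 15 largest falls that were called without overlap, called list members and Dnmt3a. Of the first 4 measured members of a list some are named too. The values of the rest of these, such as Fcgr2b, are not given, and for some lists none is named. Alternatives were other samples, probe-set summaries, scales, normalization, covariates, weights and left-out arrays.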

Additional observations from a re-analysis of the deposited data

How the results depend on the processing

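The 202 calls in CMP became 100 with only the 6 CMP arrays fitted (69 shared with the 202), 95 with the median of probe sets (80 shared), 63 with Y-linked expression as covariate (50 shared) and 16 with a minimum change of 1.5-fold. They became 356 on the scale of log2 of intensity plus 16, 1064 with array weights (553 higher and 511 lower, holding all 202), 326 with the immediate early signal as a covariate (holding all 202) and 450 without the arrays with title numbers 21986 to 21988 (165 shared). Leaving out 1 CMP array gave 61 calls (without Dnmt3a-/- replicate 3) to 211 (without wild-type replicate 1). The remaining fits of the CMP comparison with all CMP arrays and no GMP array left out gave 201 to 239.

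The difference between CMP and GMP had 48 calls with array weights, 14 with the immediate early covariate and 10 without title numbers 21986 to 21988. Leaving out 1 array gave 0 to 23 (without wild-type CMP replicate 1). Of 71 named genes 25 passed in every fit other than that with the 1.5-fold minimum, and 32 passed in all 6 fits without 1 CMP array. Cd22 had a value of -0.02 with brighter probe sets only. The cause of these shifts was not tested. No paired analysis was possible because the labels of the CMP arrays carry no replicate numbers that the genotypes share. Detection calls were not used here, so differences of genes near the background are uncertain.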

Other observations

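Further genes that passed in CMP stood outside the lists above and were chosen after their values were seen. Fits without 1 array are not given for them. Several are known from platelets and rose: the collagen receptor chain Itga2 (0.98), the ADP receptor P2ry12 (0.68), the aggregation receptor Pear1 (0.74), the guanylate cyclase subunit Gucy1b1 (0.83), the adhesion receptor Cd226 (1.39) and the granule transporter Slc35d3 (1.34). Others are known from antigen-presenting cells and rose: the lysosomal reductase Ifi30 (1.35), the protease inhibitor Cst3 (1.07), the actin-binding Aif1 (1.26), the receptor Slamf7 (1.71) and the costimulatory ligand Icosl (0.80). The costimulatory ligand Cd86 rose too, from a wild-type mean under the background of 2.91 to a mean 1.53 above it. That background is not a detection limit. The platelet and antigen-presenting genes named here were picked among rises only and show no direction for either cell type. Pecam1, also known from platelets, fell, as did the monocyte genes Csf1r and Ly86.

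Ticam2, an adaptor of Toll-like receptor 4, fell by 0.92. The folding enzyme Pdia6 fell by 0.90, the chaperone Hspa13 by 0.75 and the unfolded protein sensor Ern1 by 0.66. The receptor Notch1 fell by 0.83. Tex15, a gene of male germ cells, rose, and its mean without Dnmt3a lay 0.92 above the same background.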
